A study of Mus musculus with 6 samples.

Results

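Transcripts of 8 genes, the keratins Krt8, Krt18, Krt7, Krt19 and Krt23 together with Sox9, Epcam and Spp1, were examined in mouse liver after acute ethanol exposure. They were chosen by gene symbol as markers of the hepatocyte keratin pair and of cholangiocytes or liver progenitor cells, and each symbol was found on 1 row of the 28880 genes in the deposited matrix. RNA-seq was performed on whole liver of 3 control mice and 3 mice given ethanol acutely, all of them wild type male C57BL/6J animals aged 6 to 8 weeks, and every library carries the same batch label and holds 60514417 to 74210869 counts. Ethanol-exposed mice were fasted for 12 h, received 50% ethanol once by mouth at 6 g/kg, and were sampled 24 h later. Control mice were given no ethanol. A fast or a vehicle gavage is not described for them, so that effects of ethanol, fasting and gavage cannot be told apart.

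Keratins are the intermediate filament proteins of epithelial cells, and a filament forms only when a type I chain pairs with a type II chain. Adult hepatocytes rely almost entirely on the pair of Krt8 (type II) and Krt18 (type I), whereas cholangiocytes, the cells that line bile ducts, also make Krt7 and Krt19. In chronic liver injury, hepatocyte keratins rise and may aggregate into Mallory-Denk bodies, and small duct-like cells that carry Krt19, Krt23, Epcam and osteopontin can expand in what is called a ductular reaction. Sox9 is a transcription factor of bile duct cells that injured hepatocytes can also switch on.

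Krt8, Krt18 and Krt7 lie on chromosome 15, and Krt19, Krt23 and Sox9 on chromosome 11. In the coordinates of the deposited matrix, Krt8 (ENSMUSG00000049382) spans 101905133 to 101912917 on the minus strand, and Krt18 (ENSMUSG00000023043) spans 101936615 to 101940462 on the plus strand. The pair is separated by 23697 bases with 0 annotated genes lying wholly between them. The submitters' processing notes name GRCm38 and mm10, but these starts differ from those of the GRCm38 annotation (GENCODE M21, where Krt8 starts at 101996698 and Krt18 at 102028180), so the build of the matrix is not settled. Sox9 (ENSMUSG00000000567) spans 112673050 to 112678586 on chromosome 11, Epcam (ENSMUSG00000045394) 87943407 to 87958534 on chromosome 17 and Spp1 (ENSMUSG00000029304) 104582984 to 104588916 on chromosome 5, all on the plus strand.

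Promoter windows of 4 of these genes are shown. Krt8 and Krt18 were chosen because they form 1 filament and, with the library scaling described below, were both higher in each ethanol-exposed mouse. Krt23 and Epcam were chosen because they were high in only some of those mice. RefSeq (GRCm38.p6) gave promoters for 6 of the 8 genes, each running from 250 bases before to 50 bases after an annotated start. Below, each sequence reads 5′ to 3′ on the strand of its gene, and capitals mark matches on either strand to any motif searched.
Krt8, chr15:102004293-102004592, minus strand: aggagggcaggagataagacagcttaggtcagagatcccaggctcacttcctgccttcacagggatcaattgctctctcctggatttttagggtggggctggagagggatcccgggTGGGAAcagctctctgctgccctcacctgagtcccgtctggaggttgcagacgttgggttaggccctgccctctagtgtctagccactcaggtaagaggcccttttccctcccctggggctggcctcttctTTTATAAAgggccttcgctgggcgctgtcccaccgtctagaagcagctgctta
Krt18, chr15:102027966-102028265, plus strand: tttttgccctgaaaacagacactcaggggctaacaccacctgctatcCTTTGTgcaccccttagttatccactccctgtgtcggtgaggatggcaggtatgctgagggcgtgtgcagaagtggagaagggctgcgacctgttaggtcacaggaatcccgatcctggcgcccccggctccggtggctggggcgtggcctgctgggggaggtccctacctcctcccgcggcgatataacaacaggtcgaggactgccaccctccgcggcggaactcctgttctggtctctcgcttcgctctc
Krt23, chr11:99493071-99493370, minus strand: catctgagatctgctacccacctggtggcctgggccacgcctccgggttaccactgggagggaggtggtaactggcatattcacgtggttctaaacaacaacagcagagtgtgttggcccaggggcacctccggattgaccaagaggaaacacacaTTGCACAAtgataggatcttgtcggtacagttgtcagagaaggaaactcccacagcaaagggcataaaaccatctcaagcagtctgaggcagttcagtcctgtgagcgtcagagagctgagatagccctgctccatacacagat
Epcam, chr17:87635729-87636028, plus strand: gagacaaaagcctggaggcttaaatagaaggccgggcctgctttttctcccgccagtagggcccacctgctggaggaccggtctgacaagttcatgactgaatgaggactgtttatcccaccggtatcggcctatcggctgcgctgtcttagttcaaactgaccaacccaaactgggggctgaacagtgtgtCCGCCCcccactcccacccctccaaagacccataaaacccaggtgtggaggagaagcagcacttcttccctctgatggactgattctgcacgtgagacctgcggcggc

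Motifs of 7 kinds were searched on both strands. The TATA box was read as TATAAA and the AP-1 site as TGANTCA. The site of C/EBP factors, which are abundant in hepatocytes, was read as TTGCNNAA, and that of SOX factors as ACAAAG. For the partners of YAP and Notch, the TEAD site was read as GGAATG and the RBPJ site as TGGGAA, and the Sp1 GC box was read as GGGCGG. In the Krt8 window, TATAAA occurred on both strands in overlapping positions, which began 3 and 1 bases before the annotated start. TGGGAA occurred once there. The Krt18 window held the SOX letters on the opposite strand, the Krt23 window held the C/EBP letters, and the Epcam window held the GC box on the opposite strand. Of 32851 promoter windows of this length, 13.6% held the TATA box, 25.6% the RBPJ letters, 18.7% the SOX letters, 10.8% the C/EBP letters and 35.7% the GC box. The remaining motifs, AP-1 (7.81% of windows) and TEAD (14.7%), had no match in the windows shown. A match describes the letters only.

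Levels within a gene are reported as CPM, counts relative to a library size that was scaled by TMM, which corrects for differences in RNA composition, and levels of different genes are compared as FPKM, which is per transcript length. Differences were tested with the quasi-likelihood test of edgeR, and its p-values were adjusted by the Benjamini-Hochberg method across 16717 genes, among them all 8 genes described here. A gene was called differentially expressed when its adjusted p was below 0.05 and it had moved by more than 1 on the log2 scale. In that test, 10.4% of all genes were called higher and 13.8% were called lower in ethanol-exposed mice. Krt8 and Sox9 were called higher, none of the other 6 was called in either direction, and 0 were called lower. At an unadjusted p under 0.05 no further gene passed except Krt18. On adjusted p alone, 3 genes passed (Krt8, Krt18 and Sox9), all of them higher, against 21.5% of all genes higher and 21.5% lower. In CPM, all ethanol-exposed mice lay above all control mice for these 3 genes, an arrangement seen for 28% of all genes. They lay wholly below the control mice for 0 of the 8, against 31% of all genes. In FPKM, Krt18 overlapped between the groups, while Spp1 of the ethanol-exposed mice lay wholly below the controls (10.3 to 16.8 against 17.8 to 45.2). Values in this bulk tissue cannot distinguish fewer cells of a type from less RNA per cell, and the labels describe each library as 1 mouse.

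**Figure D1:**
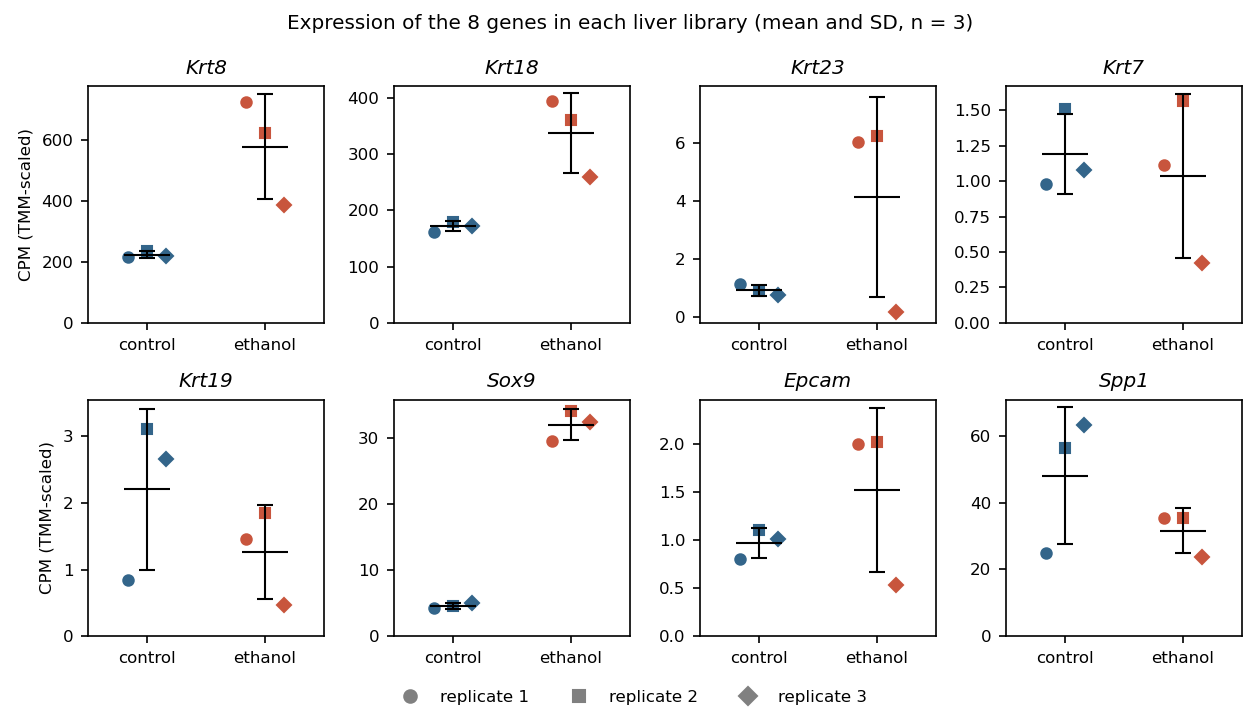
TMM-scaled CPM (vertical axes, starting at or just below 0) of the 8 genes in 3 control and 3 ethanol-exposed livers. Symbols are single libraries, bars are the mean and SD. On this scale only Krt8, Krt18 and Sox9 show no overlap between the groups. The diamond of ethanol replicate 3 lies lowest of all for Krt23, Krt7, Krt19, Epcam and Spp1.

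The hepatocyte pair was the most abundant by far. In FPKM, control livers had 141 ± 7.02 for Krt18 and 135 ± 6.31 for Krt8 (SD, n = 3), levels that overlapped between libraries. Krt8 and Krt18 together took 98.4% to 99.8% of the counts on all 17 keratin genes of the matrix. Spp1 followed at 34.4 ± 14.6 FPKM in control livers. Krt19 (1.40 ± 0.760) and Sox9 (1.33 ± 0.122) overlapped with each other, as did Krt23 (0.689 ± 0.144) and Epcam (0.518 ± 0.0825), and Krt7 was lowest (0.198 ± 0.0466 FPKM). The deposited FPKM of Krt7 implies a length of 7590 bases, against 2094 for Krt8, so its place in this order depends on that length.

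Krt8 was the more strongly raised partner of the pair. It measured 724, 622 and 388 CPM in ethanol replicates 1, 2 and 3, and 215, 236 and 220 CPM in the control replicates. Every ethanol-exposed mouse exceeded every control mouse, and ethanol replicate 3 lay nearest to them. In FPKM, Krt8 of ethanol replicate 3 (142.1) barely exceeded that of control replicate 2 (141.9). The log2 fold change was 1.37 (SE 0.22, edgeR adjusted p = 0.00304), a 2.58-fold rise. Krt18 measured 394, 362 and 259 CPM in the ethanol-exposed mice and 162, 180 and 173 CPM in the control mice, again without overlap. In FPKM, which is not scaled by TMM, ethanol replicate 3 (129) lay below every control mouse (133 to 147). The log2 fold change of Krt18 was 0.98 (95% interval 0.59 to 1.37, edgeR adjusted p = 0.00368). It passed the threshold on p and fell just short of that on the fold change.

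Both estimates depended on how libraries were scaled. TMM factors ranged from 1.26 to 1.27 among the controls and from 0.768 to 0.836 after ethanol, and with library size alone the median over all tested genes moved from -0.04 to -0.71 on the log2 scale. On that scale the Krt8 value was 0.71 (adjusted p = 0.0339) and the Krt18 value 0.32 (adjusted p = 0.174), whereas relative to the median of all genes the values were 1.42 and 1.03. Of the stretches of 100 bases in the Krt8 transcript, 16.9% also occur in the pseudogene Krt8-ps, which had 52 to 130 counts per library, so a small part of the Krt8 reads is uncertain. None of the stretches of Krt18 occurs in another annotated transcript.

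The ratio of Krt8 to Krt18 within a library does not depend on scaling. In FPKM it was 1.35, 1.26 and 1.101 in ethanol replicates 1 to 3, and 0.975, 0.963 and 0.933 in the control replicates. The transcript ratio was thus higher in each ethanol-exposed liver than in any control liver, while its absolute level depends on the transcript lengths used for FPKM. The mean log2 ratio was 0.30 in ethanol-exposed mice and -0.06 in control mice, a difference of 0.37 (exact permutation test, two-sided, p = 0.1, the smallest that 3 mice per group allow). Leaving out each library in turn gave differences of 0.30 to 0.45.

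Krt23, a type I keratin associated with stressed and duct-like liver cells, varied most among the ethanol-exposed mice. It measured 6.03 and 6.23 CPM in ethanol replicates 1 and 2, or 347 and 381 counts, but 0.165 CPM (9 counts) in ethanol replicate 3. The control mice had 1.12, 0.892 and 0.741 CPM. Ethanol replicate 3 therefore lay below every control mouse, whereas its fellow animals lay above all of them. The log2 fold change of 2.17 did not pass (95% interval -0.16 to 4.50, edgeR adjusted p = 0.116), and without ethanol replicate 3 it was 2.75 (adjusted p = 7.12e-05).

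The bile duct keratins were not called. Krt7 (type II) measured 1.11, 1.57 and 0.421 CPM in ethanol-exposed mice and 0.980, 1.51 and 1.08 CPM in control mice. Ethanol replicate 2 lay above and ethanol replicate 3 below the range of the control mice, with a log2 fold change of -0.20 (95% interval -1.34 to 0.95). Krt19 (type I) measured 1.46, 1.85 and 0.476 CPM in ethanol-exposed mice and 0.842, 3.11 and 2.66 CPM in control mice. Control replicate 1 was low among its group, and the log2 fold change was -0.80 (95% interval -2.25 to 0.65, edgeR adjusted p = 0.328). It was -0.40 without ethanol replicate 3 and -1.45 with library size alone (edgeR adjusted p = 0.0879), called in neither. Krt7 had 23 to 115 counts and Krt19 had 26 to 237 counts per library, the lowest of the 8 genes together with Epcam and Krt23. Beyond the 5 keratins above, 12 keratin genes were listed, of which Krt10 and Krt80 alone had enough counts to be tested, and neither was called. Both were called lower with library size alone. DESeq2 fitted 9 of the 12 and called 2 of them lower, though it gave no adjusted p for 6196 of its 26459 genes.

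Sox9 showed the largest and most even change of the 8 genes. It rose from 4.25, 4.62 and 5.12 CPM in control replicates 1 to 3 to 29.6, 34.2 and 32.4 CPM in ethanol replicates 1 to 3. All 3 ethanol-exposed mice stood several times above every control mouse, including ethanol replicate 3, in which 5 of the other genes were lowest. The means were 32.1 ± 2.30 and 4.67 ± 0.438 CPM (SD, n = 3), a 6.87-fold rise. The log2 fold change was 2.78 (SE 0.13, edgeR adjusted p = 5.61e-05). It was called under every alternative tried, and with library size alone it was 2.12 (adjusted p = 9.13e-05). Its nearest neighbour, BC006965, on the opposite strand 248 bases away, had at most 10 counts.

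Epcam encodes an adhesion protein of bile duct epithelium and of liver progenitor cells. It measured 1.999, 2.011 and 0.531 CPM in ethanol-exposed mice and 0.799, 1.102 and 1.01 CPM in control mice. As for Krt23, ethanol replicates 1 and 2 lay above all control mice and ethanol replicate 3 lay below them. The log2 fold change was 0.64 (95% interval -0.54 to 1.83, edgeR adjusted p = 0.334), and without ethanol replicate 3 it was 1.06 (adjusted p = 0.0159). With library size alone the value was -0.01, so that no direction can be given for Epcam.

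Spp1 encodes osteopontin, a secreted phosphoprotein made by bile duct cells and by some macrophages, which binds integrins and Cd44. It measured 35.5, 35.4 and 23.7 CPM in ethanol-exposed mice and 24.8, 56.2 and 63.3 CPM in control mice. Control replicate 1 lay within the range of the ethanol-exposed mice, whereas the other control mice lay above it. In FPKM, control replicate 1 (17.8) also lay above the ethanol-exposed mice (10.3 to 16.8). The log2 fold change was -0.61 (95% interval -1.41 to 0.20, edgeR adjusted p = 0.192). With library size alone it was -1.27 (adjusted p = 0.0182), past both thresholds, and without control replicate 1 it was -0.92 (adjusted p = 0.0232).

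**Figure D2:**
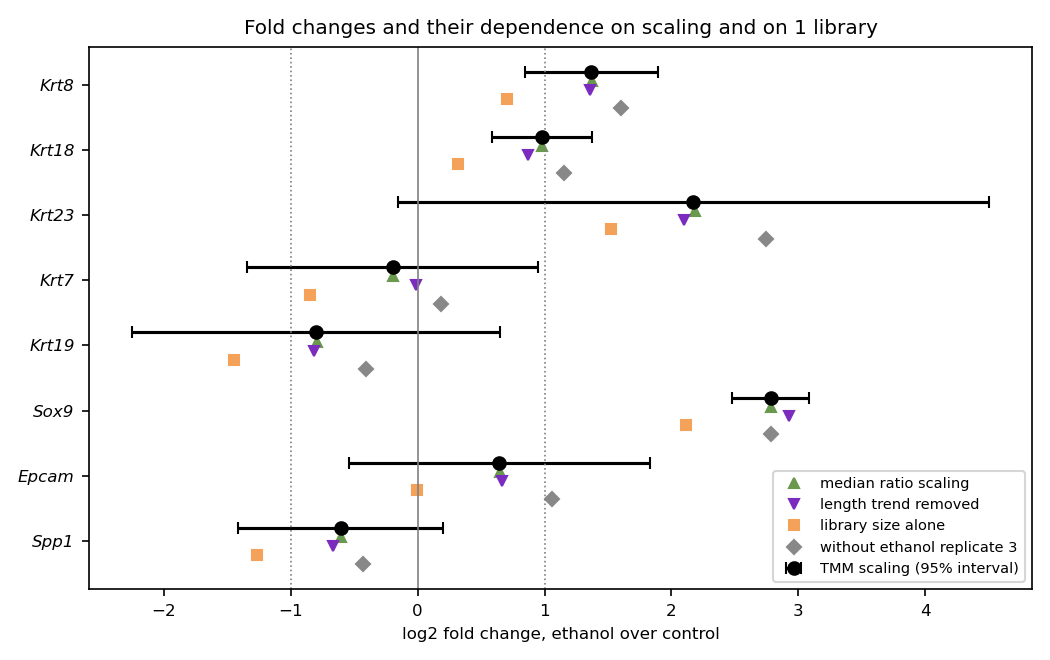
Log2 fold change of ethanol-exposed over control mice (horizontal axis) for each gene, with the 95% interval under TMM scaling and the values under 3 other scalings and without ethanol replicate 3. Dotted lines mark a log2 fold change of 1 in either direction. Sox9 lies beyond 2 in all 5 settings, while library size alone moves every gene to the left.

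Ethanol replicate 3 was the lowest of all 6 libraries for 5 of the 8 genes in CPM (Krt23, Krt7, Krt19, Epcam and Spp1), and also for Krt18 in FPKM. By CPM it was lowest for 21.4% of all genes tested. Relative to the lower of the other ethanol-exposed mice, it was 36.6-fold lower for Krt23, 3.76-fold for Epcam, 3.06-fold for Krt19, 2.64-fold for Krt7, 1.60-fold for Krt8, 1.49-fold for Spp1 and 1.40-fold for Krt18. Sox9 was the exception, at 32.4 CPM against 29.6 CPM in ethanol replicate 1. Without ethanol replicate 3, 5 genes were called higher (Krt8, Krt18, Krt23, Sox9 and Epcam), where 10.9% of the 17622 genes tested were. In CPM the only other library lowest for any gene was control replicate 1, for Krt8, Krt18 and Sox9.

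**Figure D3:**
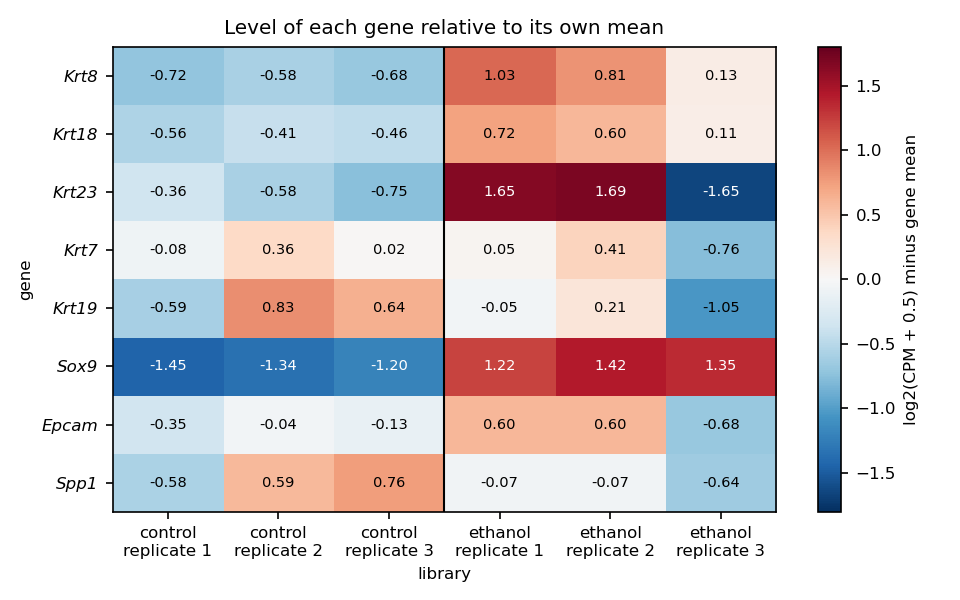
Level of each gene in each library as log2(CPM + 0.5) minus the mean of that gene over the 6 libraries; red is above and blue below the mean. Sox9 separates the groups evenly, Krt8 and Krt18 do so with ethanol replicate 3 near the mean, and Krt23 is at 1.65 and 1.69 in ethanol replicates 1 and 2 but at -1.65 in ethanol replicate 3.

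Other genes of bile duct cells did not move as a body. Of 24 listed cholangiocyte markers, 19 were tested, 0 were called higher and 3 were called lower, with a median log2 fold change of -0.21 against -0.04 for all genes. Pkhd1, which encodes the ciliary protein fibrocystin, fell by 1.38 on the log2 scale (edgeR adjusted p = 0.00155) and Ehf, an epithelial ETS factor, fell by 1.29 (adjusted p = 0.0425). The count called lower was 1 without ethanol replicate 1, control replicate 2 or control replicate 3, and 1 with the trend with transcript length removed. The count called higher was 1 without ethanol replicate 1 and 1 without ethanol replicate 3. The call of Ehf was lost without ethanol replicate 3 and with the length trend removed. Defining bile duct genes were barely detected. The chloride channel Cftr had 0 counts in each ethanol-exposed mouse and 8 to 18 in the controls. The secretin receptor Sctr had 4 counts in ethanol replicate 3 and 0 in every other library. Summed over the list, the level was 235 to 267 CPM after ethanol against 227 to 241 CPM in the controls, but with library size alone it was 183 to 224 against 286 to 304, and 6 of the 19 genes were then called lower. With that scaling 32.2% of all genes tested were called lower and 5.06% higher, the background for every list count given for library size alone. This sum was carried by genes that did not move together, such as Aqp1, a water channel (mean 92.2 CPM after ethanol and 48.7 in the controls), and Cdh1, E-cadherin (45.1 and 66.9 CPM), neither of them called. Aqp1 passed the threshold on p (edgeR adjusted p = 0.0181) but not that on the fold change (0.92). In CPM, 3 of the 19 lay wholly above the controls after ethanol and 4 wholly below, against 28% and 31% of all genes.

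Among 14 tested progenitor and ductular reaction genes, 3 were called higher and 6 lower (median -0.95). Tnfrsf12a, the receptor of the cytokine TWEAK, rose by 3.56 on the log2 scale, with 28.8 to 47.7 CPM after ethanol against 2.92 to 4.14 CPM in the controls. Lcn2, an iron-siderophore binding protein of the acute phase, rose by 7.32, but its level was 2650 CPM in ethanol replicate 3 and 36.4 and 49.7 CPM in the others, and without that mouse the value was 2.92. Lgr5, the R-spondin receptor, fell by 3.61 and the transcription factor Onecut2 by 1.56. The fetal protein Afp fell by 1.36. Markers of this list thus changed in both directions, also with library size alone (2 higher and 6 lower) and without any 1 control mouse (2 higher and 4 or 5 lower).

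Keratin partners were followed in a list of 20 genes, of which 5 were called higher and 2 lower (median 0.21). Tgm2, the transglutaminase that cross-links keratins, rose by 1.98 on the log2 scale, and the small heat shock protein gene Hspb1 rose by 1.93. Without any 1 of the control mice 3 were called higher, and without ethanol replicate 1 or control replicate 3 only 1 was called lower. With library size alone, 1 gene of this list was called higher (Tgm2) and 5 lower, and Hspb1 was at 1.28 (edgeR adjusted p = 0.0691). Hspb1 measured 71.8, 93.0 and 18.6 CPM in ethanol replicates 1 to 3 and 15.2 to 17.0 CPM in control mice, so that ethanol replicate 3 was near the control level here too. Hspa1b fell by 1.97, although Hspa1a, a near-identical copy whose reads could be split with it, was not called (-0.22). The ubiquitin ligase gene Trim21 fell by 1.08, a call lost when the trend with transcript length was removed (-0.95). Sqstm1, which encodes the p62 protein of Mallory-Denk bodies, measured 302 to 340 CPM after ethanol against 289 to 318 CPM in the controls and was not called (0.12).

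Notch and YAP signaling both control Sox9 in the developing bile duct. Of 15 Notch pathway genes, 3 were called higher and 0 lower (median 0.06). Jag2, a Notch ligand, rose by 2.32 on the log2 scale from a low level, with 44 to 78 counts after ethanol against 12 to 22 in the controls. Hes1, a target gene of Notch, rose by 1.67, with 7.28 to 10.8 CPM after ethanol against 2.22 to 3.86 CPM in the controls. Of 18 genes of the YAP and TEAD pathway, 3 were called higher and 1 lower (median -0.48). Tead1, the DNA-binding partner of YAP, rose from 7.89 to 8.59 CPM in control mice to 92.4 to 104 CPM in ethanol-exposed mice, a log2 fold change of 3.57 (SE 0.11). Sav1, a scaffold of the Hippo kinases, rose by 2.20, and Ajuba fell by 1.45. The YAP target genes Ccn1, Ccn2 and Ankrd1 had log2 fold changes of -0.63, -1.34 and -2.35 and were not called. Without ethanol replicate 3, the YAP and TEAD list had 2 higher and 3 lower calls, and without ethanol replicate 1 it had 3 and 2. With library size alone, 2 genes were called higher and 7 lower in that list, and 2 and 2 in the Notch list.

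Genes linked to Epcam and the tight junction were called in 1 direction. Of 18 tested, 0 were called higher and 7 lower, with a median of -0.84. The number called lower was 13 with library size alone, 4 without control replicate 1, 5 without ethanol replicate 3 and 5 with the trend with transcript length removed. Cldn1, a tight junction strand protein, fell by 2.68 on the log2 scale, with 10.4 to 22.9 CPM after ethanol against 91.3 to 115 CPM in the controls. The protease gene Bace1 fell by 1.95. For osteopontin, 2 of 14 receptors and proteases were called higher and 1 lower. Itgb3 rose by 1.81 and Itgav, its integrin partner, by 1.03, whereas Cd44 fell by 1.02. None of the list was called in either direction without ethanol replicate 1, control replicate 1 or control replicate 2, and 1 was called higher and 0 lower without ethanol replicate 2 or control replicate 3. With library size alone neither integrin gene was called, and Cd44 lost its call when the length trend was removed (-0.84).

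**Figure D4:**
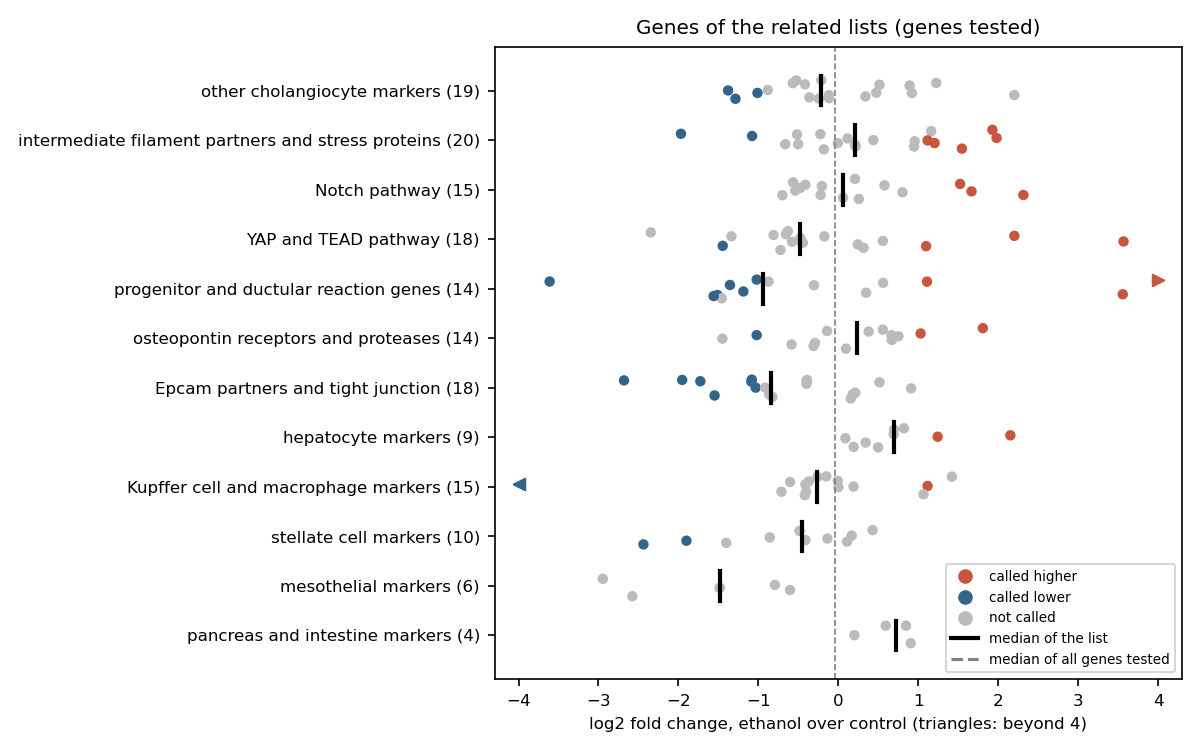
Log2 fold change (horizontal axis) of every tested gene in 12 related lists, with the number tested in parentheses; red and blue points were called higher and lower, black bars are list medians and the dashed line is the median of all genes. Genes of the list of Epcam partners and the tight junction lie to the left with 7 called lower, while Notch genes include 3 called higher. The list of other keratins, with 2 genes tested, is not drawn.

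Markers of other liver cells were measured beside these genes. Among 9 hepatocyte markers 2 were called higher, Fgb (log2 fold change 2.15) and Apoa1 (1.24). On adjusted p alone 6 of the 9 were higher, against 21.5% of all genes. Alb made up most of the summed level of the list, with 92779 to 94791 CPM after ethanol against 49630 to 59735 CPM in the controls. That summed level was 129149 to 140283 CPM after ethanol against 70061 to 82336 CPM in the controls. This sum with library size alone was 103281 to 107941 against 88102 to 104181, groups that overlapped, and Apoa1 was no longer called (0.57). Macrophage markers, relevant to Spp1, summed to 121 to 158 CPM and 155 to 172 CPM, with Cd68 called higher (1.12, a call lost with library size alone, with the length trend removed and without any 1 library other than ethanol replicate 3) and Ccr2, a monocyte chemokine receptor, at 0 counts in each mouse given ethanol against 37 to 56 in the controls, at least 10.7-fold lower against a limit of 3 counts per library. The macrophage sum with library size alone was 101 to 123 after ethanol against 196 to 217 in the controls, without overlap, and 6 of the markers were called lower. Stellate cell markers summed to 151 to 178 CPM and 141 to 199 CPM, with Col3a1 and Col1a1 called lower (-2.44 and -1.90). The stellate sum with library size alone was 116 to 149 against 179 to 250 and 5 genes were called lower, while 4 were called lower without control replicate 1 and 1 without control replicate 2 or 3 or ethanol replicate 1 or 2. Mesothelial cells, which also make Krt7 and Krt19, had low markers, 0.660 to 3.55 CPM in ethanol-exposed mice against 3.67 to 4.72 CPM in control mice, with 0 of 6 tested called. The number called lower was 3 with library size alone, 4 of 7 without ethanol replicate 2 and 2 of the 7 fitted with DESeq2. Pancreas and intestine markers summed to 41.8 to 47.6 CPM and 26.5 to 29.3 CPM with 0 of 4 tested called, and to 32.1 to 39.8 against 33.4 to 36.8 with library size alone. Without ethanol replicate 1 or ethanol replicate 2, 1 was called higher. The sum was mostly Fabp2 and Lgals4, whereas the acinar genes of the pancreas Pnlip (43 counts), Ctrb1 (28), Amy2a5 (12) and Prss2 (4) were found almost only in ethanol replicate 2, with 0 to 4 counts in every other library. Cela2a, of the same list, had no such pattern, with 19 to 52 counts per library and 22 in ethanol replicate 2. Among the ethanol-exposed mice, Krt7, Krt19, Krt23, Sox9 and Epcam were also highest in ethanol replicate 2, Epcam by 2.011 against 1.999 CPM. The part of these cell markers in the results above was not tested.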

How the data were processed

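Liver transcriptomes of 3 acute ethanol-exposed and 3 control mice were analysed, grouped by their titles. For each Ensembl gene the authors deposited raw read counts and FPKM values (scaled to transcript length and library size). Before alignment, adaptors had been removed, as had reads of low quality or with ambiguous bases. The aligner, the counting software, and strand use are not given in the sources used here. Each library held 60514417 to 74210869 counts, so counting error is small except for the lowest genes. A further 1 count column corresponded to none of the labelled libraries and was left out.

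Counts were analysed in R 4.3.3 with edgeR 4.0.16 (filterByExpr, TMM factors, quasi-likelihood test, no covariates), with DESeq2 1.42.0 and limma 3.58.1 as alternatives, and the test was checked on simulated data. The members and lists were chosen with earlier results of these data known. The genes described are the 8 members, the called genes with the largest changes in each list (at most 2 in each direction), and genes most like a called member in profile. Afp, Aqp1, Cdh1, Sqstm1, Hspa1a, the untested bile duct and pancreas genes, Fabp2, Lgals4, and the YAP target genes were named after their values were seen. Same-numbered libraries did not deviate together. Replicates within a group were distinct beyond counting noise, at 53.9 to 545 for the chi-square over its degrees of freedom.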

Additional observations from a re-analysis of the deposited data

How the results depend on the processing

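Sox9 was called higher in all 15 alternatives, and the difference in the Krt8 to Krt18 ratio kept its sign when each library was left out in turn. The share of called genes that were lower was 57.0% with TMM, 86.4% with library size alone, 51.0% with the trend with transcript length removed, and 80.8% and 86.8% with limma at pseudocounts of 1 and 0.1. Over all genes, 1738 were called higher and 2301 lower; library size alone gave 846 and 5385, a floor of 1 on the mean FPKM gave 1020 and 1166, and the counts were 752 and 4965 with limma on log2(FPKM + 0.1), and 408 higher with limma on log2(FPKM + 1). Of the 8 genes, 1 was called higher and 1 lower (Spp1) with library size alone and with either limma fit. In these fits, in that order with the pseudocount of 1 before that of 0.1, log2 fold changes were 0.71, 0.65 and 0.65 for Krt8, which lost its call, -1.27, -1.14 and -1.19 for Spp1, which gained one, and -0.0076, -0.0235 and -0.1613 for Epcam, which turned. In the same order, values were 1.53, 0.60 and 0.57 for Krt23 and -1.45, -0.63 and -1.28 for Krt19, neither of them called. FPKM is not corrected for RNA composition, as library size alone is not. Of the 19 list genes called higher, 8 remained called with library size alone, 5 genes were called with limma on log2(FPKM + 1) and 6 with the pseudocount of 0.1. The 22 called lower became 56 with library size alone, 47 with limma on log2(FPKM + 0.1) and 14 under the floor of 1 on the mean FPKM, where fewer genes are tested.

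Leaving out 1 library at a time gave 1490 to 1920 higher and 1713 to 2902 lower calls over all genes, and 2 to 5 of the 8 genes were called higher, 5 of them without ethanol replicate 3. Log2 fold changes ran from 1.18 to 1.60 for Krt8, 0.86 to 1.15 for Krt18 (called without ethanol replicate 3, and without control replicate 2 at 1.01), 1.76 to 2.75 for Krt23, 0.39 to 1.06 for Epcam, -0.63 to 0.18 for Krt7 (above 0 without ethanol replicate 3, and at 0.01 without control replicate 2), -1.19 to -0.40 for Krt19 and -0.92 to -0.36 for Spp1. The list genes called were 13 to 18 higher and 16 to 25 lower.

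The replicate block was fitted although the numbers do not pair the mice: deviations of same-numbered libraries correlated at -0.04, -0.03 and -0.01. With it, 1518 genes were called higher and 2000 lower, and no call among the 8 genes changed. The log2 fold change was 1.32 for Krt8, 2.78 for Sox9 and 1.43 for Krt23, against 2.17 for Krt23 without the block. In the cholangiocyte list 1 gene was then called lower. The causes of these shifts were not tested. Counts fell as low as 9 for Krt23, 23 for Krt7, 26 for Krt19 and 29 for Epcam, which limits their precision.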

Other observations

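By likeness of profile, the genes nearest to Krt8 over the 6 libraries were Plcd1, which encodes a phospholipase C (root mean square difference of 0.084 on the scale of log2(CPM + 0.5)), and Tbc1d8 (0.095). Plcd1 was low, at 0.916 to 1.70 CPM in ethanol-exposed mice and 0.234 to 0.302 CPM in control mice, where the 0.5 added before the logarithm compresses differences, and its log2 fold change was 2.34 against 1.37 for Krt8. Tbc1d8 measured 35.6, 29.6 and 16.2 CPM in ethanol replicates 1 to 3 and 10.2 to 10.7 CPM in control mice, a log2 fold change of 1.37. The genes nearest to Sox9 were Efhd2 (0.149), a calcium-binding protein, and Prkch (0.152), a protein kinase C. Prkch measured 10.3 to 10.7 CPM after ethanol against 1.38 to 1.58 CPM in the controls. These distances are a description of 6 libraries.

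Control replicate 1 differed from the other control mice in a set of genes noticed after the values were seen. Spp1 was at 24.8 CPM there against 56.2 and 63.3 CPM in control replicates 2 and 3, and Krt19 at 0.842 against 3.11 and 2.66 CPM. The bile duct tetraspanin Tspan8 was at 0.298 against 1.86 and 2.20 CPM. Some stellate cell markers were also low there, with Acta2 at 0.874 against 13.4 and 6.79 CPM, Col1a1 at 2.33 against 11.4 and 6.55 CPM, and Col3a1 at 12.8 against 39.1 and 32.4 CPM. Krt8 (215 against 236 and 220 CPM) and Sox9 (4.25 against 4.62 and 5.12 CPM) differed far less in that mouse. Other stellate cell markers were not low there, with Rgs5 at 16.3 against 15.5 and 14.4 CPM and Reln at 21.9 against 17.5 and 20.9 CPM. These genes were picked by eye, and no test was made.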
